A study of Mus musculus with 4 samples.

Results

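The 41 genes described here encode antiviral effectors and nucleic acid sensors of the mouse: sensors and their adaptor, the OAS and IFIT families, the MX GTPases, the ISG15 system, PARP9-type ADP-ribosyltransferases and further effectors. They were chosen by symbol, with no measured value in the rule. These genes and the other lists below were, however, chosen with earlier results of these data known. Shares of members beside shares of all genes are therefore descriptions only. All 41 were found among the 56393 genes of the table, and all 41 were past the count minimum (a mean of 50 or more counts across libraries), which 14187 genes passed. RNA was sequenced from MPC, a conditionally immortalised mouse podocyte line, in 4 groups with 1 library each. The series' design text counts 4 treated and 4 untreated samples, while 4 libraries in all were analysed here, and whether a library pools several cultures is not stated. In sh-NC the cells carried a control hairpin and received no added glucose, and in sh-NC/HG the same cells were kept in D-glucose at a final 40 mmol/L for 24 h. In sh-JAML the cells carried a hairpin against Jaml and received no added glucose, and in sh-JAML/HG they received the same D-glucose. Per the labels, all 4 groups came from cells grown at 33 °C with interferon-gamma at 20 U/ml and then kept at 37 °C without it for 7 days. The labels name no osmotic control and do not say whether either hairpin line was 1 clone. Jaml itself had a count of 0 in every library, the control hairpin included, which allows up to 3 fragments in each, so its knockdown could not be checked in these counts and the hairpin groups rest on their labels. The table columns behind the control hairpin libraries are named ctr and HG, with no hairpin in the name. With 1 library per group there are no replicates, so each pair of libraries is described without a test, and intervals cover counting error only.

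Cells recognise viral or misplaced RNA and DNA through sensors in the cytosol and in endosomes. These signal through adaptors to transcription factors that switch on type I interferon genes. Secreted interferon then acts through its receptor on transcription factors that include STAT2 and IRF9 and that bind the interferon-stimulated response element in the promoters of effector genes. The sensors are themselves induced in this way. Podocytes are epithelial cells of the kidney filter.

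Promoter letters are shown first, because the members are known mainly as genes with a response element. RefSeq promoter windows (GRCm38.p6, 250 bases before to 50 after each start) were given for 30 members. None was used for Dhx58, Ifi27, Mx1, Mx2, Oas1b, Oas2, Parp14, Parp9, Rtp4, Usp18 and Zbp1. The response element core, GAAA then any 2 bases then GAAA, was searched on both strands (TTTC, any 2 bases, TTTC on the other), counting matches that overlap each other. It was present in at least 1 window of 14 of the 30 members (46.7%) and of 1079 of all 27025 genes in the table (3.99%). By window, 15 of 36 member windows (41.7%) and 3.44% of all 32851 windows held it. The gamma-activated sequence core, TTC then any 3 bases then GAA, which reads the same on both strands, was in windows of 8 of 30 members (26.7%) and of 9.55% of all genes. A match is a description of the letters, not a site of binding.

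Below are the 150 bases before the start of 8 members, 5′ to 3′ in the direction of transcription, with every match to the response element core, on either strand, in capitals. Isg15, Rsad2, Ifit1, Oas1a, Oas1g and Bst2 are shown for their matches. Oasl2, the member whose counting interval lay above 1 with glucose under both hairpins, and Mavs, the member that was not higher in sh-NC/HG, are shown beside them and had none of these letters in this stretch.
Isg15 (chr4:156200819-156200968, minus strand): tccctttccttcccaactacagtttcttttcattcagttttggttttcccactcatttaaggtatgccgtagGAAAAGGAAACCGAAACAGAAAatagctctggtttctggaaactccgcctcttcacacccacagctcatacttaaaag
Rsad2 (chr12:26456453-26456602, minus strand): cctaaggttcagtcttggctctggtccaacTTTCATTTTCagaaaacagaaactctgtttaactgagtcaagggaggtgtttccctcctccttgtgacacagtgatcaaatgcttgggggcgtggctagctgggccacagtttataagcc
Ifit1 (chr19:34640739-34640888, plus strand): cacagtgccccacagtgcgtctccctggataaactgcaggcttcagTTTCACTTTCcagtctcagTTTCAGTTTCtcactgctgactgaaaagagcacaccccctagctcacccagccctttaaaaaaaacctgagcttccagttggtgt
Oas1a (chr5:120907526-120907675, minus strand): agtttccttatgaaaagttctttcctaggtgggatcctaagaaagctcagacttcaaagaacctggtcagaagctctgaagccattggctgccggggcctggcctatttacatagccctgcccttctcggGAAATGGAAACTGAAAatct
Oas1g (chr5:120887614-120887763, minus strand): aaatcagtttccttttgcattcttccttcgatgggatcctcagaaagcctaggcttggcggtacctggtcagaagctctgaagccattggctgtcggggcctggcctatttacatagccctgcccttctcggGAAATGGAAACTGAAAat
Bst2 (chr8:71537473-71537622, minus strand): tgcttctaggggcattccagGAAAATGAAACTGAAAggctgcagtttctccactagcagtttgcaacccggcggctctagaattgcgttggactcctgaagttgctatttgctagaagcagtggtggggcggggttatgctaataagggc
Oasl2 (chr5:114896784-114896933, plus strand): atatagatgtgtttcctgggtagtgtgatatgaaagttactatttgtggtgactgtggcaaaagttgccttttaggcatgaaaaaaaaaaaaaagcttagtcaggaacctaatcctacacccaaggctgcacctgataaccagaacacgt
Mavs (chr2:131233913-131234062, plus strand): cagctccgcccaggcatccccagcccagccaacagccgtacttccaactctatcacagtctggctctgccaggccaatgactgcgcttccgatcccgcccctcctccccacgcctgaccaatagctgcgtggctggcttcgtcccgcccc

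Isg15 held 3 overlapping matches, and Ifit1, Oas1a, Oas1g and Bst2 held 2 each. The windows of Ddx58, Eif2ak2, Ifih1, Ifit3, Ifit3b, Ifitm3, Oas3 and Trim30a, which also held the core, are not printed. The window of 10 of the 14 held a match before the start, and the remaining 4 (Ifih1, Ddx58, Eif2ak2 and Ifitm3) held theirs after it. The ratio of glucose to no added glucose under the control hairpin was 1.49 to 3.25 for the 14 members with the core, with a median of 1.99, and 7 were past 2-fold (4.65% of all genes were). The 16 with a window and no core had ratios of 0.944 to 3.21 with a median of 1.66, and 3 were past 2-fold. The ranges overlapped, and Oasl1 (3.21-fold) had a high ratio with no core in its window. For the gamma-activated core the order was the other way. The 8 members with it had a median ratio of 1.65 with 2 past 2-fold. The 22 without it had a median of 1.82 with 8 past 2-fold. All of these medians leave out the 11 members without a window, whose ratios were 1.12 to 6.20. Among those were Mx1 (6.20), Oas2 (5.22), Mx2 (3.30), Zbp1 (3.24) and Dhx58 (2.84). Only Ifi27, Oas1b and Rtp4 of the 11 were under 2-fold.

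**Figure D1:**
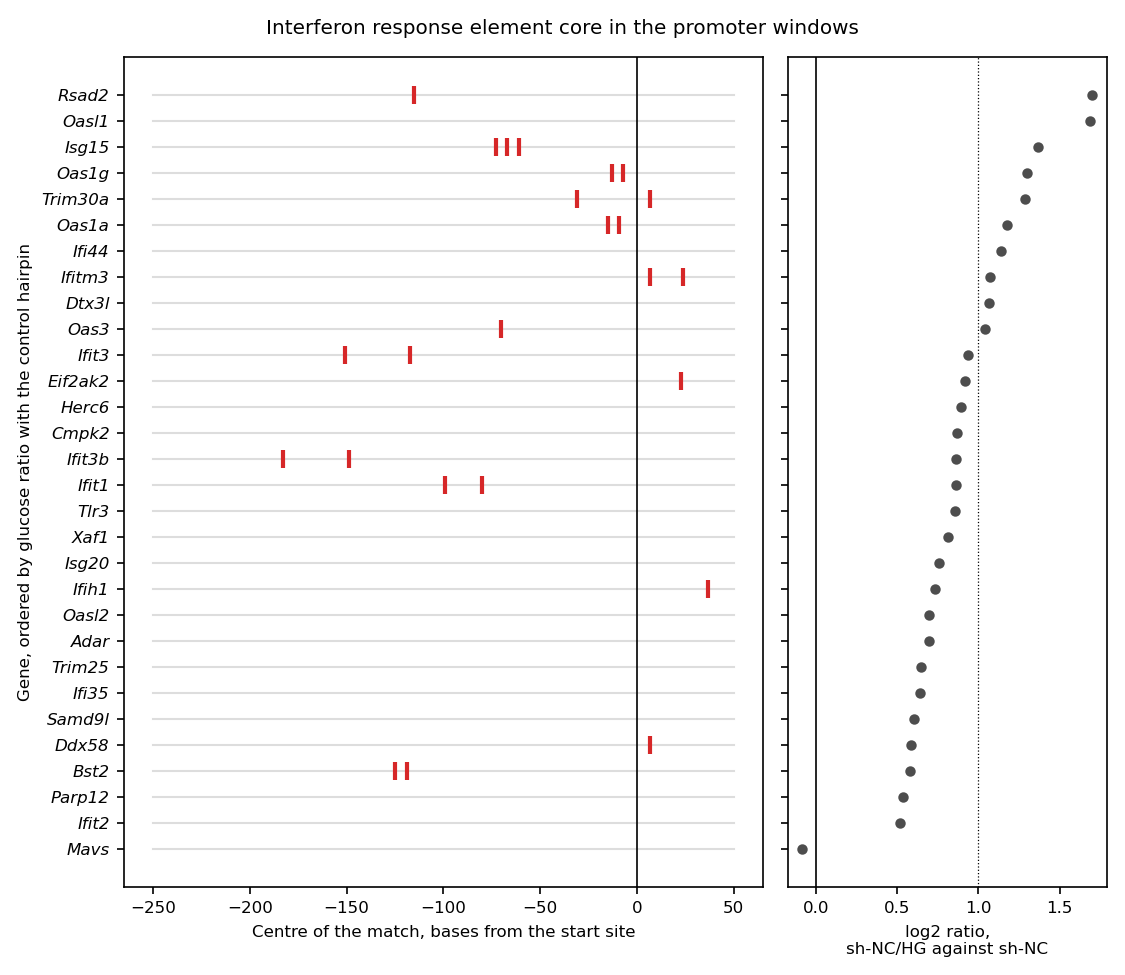
Left, position of each match to the response element core (red bars, centre of the match in bases from the start site) in the RefSeq windows of 30 members (grey lines, overlaid where a gene has several windows). Right, log2 ratio of sh-NC/HG over sh-NC for the same genes, with 2-fold dotted. Genes with matches are spread over the order of ratios, from Rsad2 at the top to Bst2 near the bottom. Mavs alone lies below 0. The 11 members without a window, Mx1 and Oas2 among them, are not drawn.

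The whole set stood out in the sh-NC/HG library. Its summed level in CPM (counts scaled to a common library size with TMM) was 5969 and 11022 with the control hairpin, without and with glucose, and 5743 and 5163 with the Jaml hairpin. The median member was at 103 CPM without and 215 CPM with glucose under the control hairpin, and at 100.0 and 96.2 CPM under the Jaml hairpin. So 3 libraries were alike and sh-NC/HG was high. It was the highest of the 4 libraries for 39 of 41 members, against 36.0% of the 14187 genes, the exceptions being Mavs and Isg20. Among the other 3 libraries the highest level of a member was a median of 1.18 times its lowest, beside 1.16 times over all genes. For 37 members the step from the highest of those 3 up to sh-NC/HG was larger, as a ratio, than the highest over the lowest of the 3, which 18.1% of all genes met. In bulk RNA, more cells expressing a gene and more RNA per cell cannot be told apart.

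**Figure D2:**
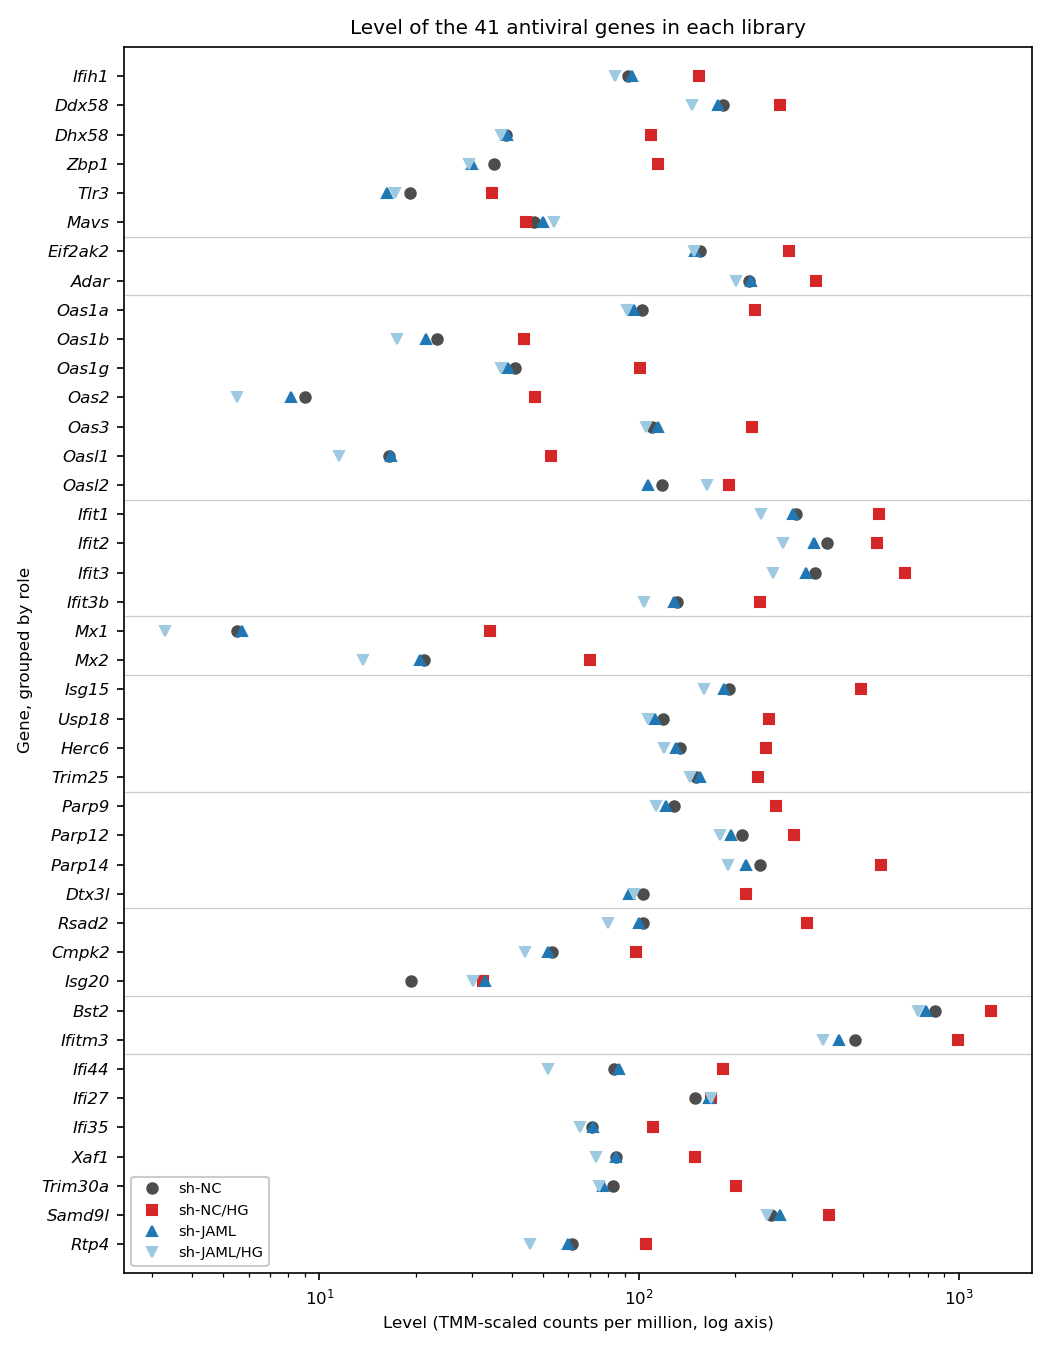
Level of each member (TMM-scaled CPM, log axis) in the 4 libraries, 1 point per library, grouped by role between grey lines. The red squares of sh-NC/HG lie to the right of the other 3 points for 39 of 41 genes, while Mavs and Isg20 do not follow.

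The libraries had total counts of 79330461 to 94341975 units, where 4 units were taken as 1 fragment. The cells had podocyte and other markers side by side. Of the 14 podocyte markers 10 were past the minimum. They summed to 2658 and 2716 CPM under the control hairpin, without and with glucose, and to 2312 and 2318 CPM under the Jaml hairpin. Synpo (synaptopodin) and Nes (nestin) were present in every library. The slit diaphragm gene Nphs1 had at most 35 units in a library, and the podocyte factor gene Tcf21 was 0 in all 4. Of the 14 leukocyte markers, 3 (Cd68, Csf1r and Lyz2) were past the count minimum, the summed level was between 57.8 and 68.1 CPM with sh-NC/HG the lowest, and Siglech and Ncr1, which mark plasmacytoid dendritic cells and natural killer cells, were 0 in all 4. In sh-JAML/HG 11 of the 14 were at 0, against 3 to 6 in the other libraries, and Lyz2 had 5 units there against 162 to 282. Of the 10 endothelial markers 4 were past the minimum, with a summed level of 42.5 CPM in sh-NC/HG and 25.6 to 30.8 CPM in the others, and Kdr and Tie1 were 0 in all 4. All 4 measured ones were above 1 with glucose under the control hairpin (50.2% of all genes): Flt1 3.68-fold (2.29 to 6.44), Plvap 2.71-fold (1.63 to 4.54), Egfl7 1.64-fold (1.29 to 2.10) and Ehd3 1.31-fold (1.15 to 1.48). Under the Jaml hairpin 3 of the 4 were above 1 with glucose (49.9% of all genes) and 1 was below (50.1%), with a median of 1.22-fold. The 11 tubule markers summed to 1334 CPM in sh-NC/HG and to 851 to 1077 CPM in the others, with Umod, Slc34a1 and Calb1 at 0 in all 4. The 10 mesangial and fibroblast markers summed to 825 CPM in sh-NC/HG and to 875 to 1236 CPM in the others, with Itga8, Ren1 and Lum at 0 in all 4. Of the 5 measured ones, 1 was above 1 with glucose under the control hairpin (50.2% of all genes) and 4 were below (49.8%). The 1 above was Des (desmin). It had 36 and 216 units under the control hairpin, without and with glucose, and 9 and 17 units under the Jaml hairpin. The RNA of sh-NC/HG also differed in composition. The 13 mitochondrially encoded mRNAs summed to 13423 CPM there and to 19778 to 21212 CPM in the others. Of 30 measured histone genes 17 were at least 2-fold lower than in sh-NC (3.27% of all genes). The part of these differences in the antiviral values was not tested. With mitochondrial genes left out of the library totals, 18 members were again past 2-fold higher for glucose under the control hairpin. That setting changes only the scaling of the libraries, so it does not test the differences named above.

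The comparison of sh-NC/HG with sh-NC asks what differs after high glucose when the hairpin is the control. Of the 41 members 40 lay above a ratio of 1 (50.2% of all genes) and 1 below (49.8%), with a median of 1.87. Past 2-fold, 18 members were higher (4.65% of all genes) and 0 lower (3.27%). Past 1.5-fold, 35 were higher (10.0%) and 0 lower (8.96%). The median log2 ratio over all genes was 0.00. The counting interval lay above 1 for 40 members (29.1% of all genes), below 1 for 0 (28.3%) and held 1 for Mavs. Nearest the 2-fold line were Oas3 inside it at 2.06 and Ifit3 outside it at 1.92. Parentheses after a ratio below hold its exact 95% counting interval.

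The MX GTPases, dynamin-like proteins that trap viral ribonucleoproteins, had the highest median ratio of the role groups in the sh-NC pair, although Oas2 was above Mx2. Mx1 (chromosome 16, 97447035 to 97462907 on mm10), whose mouse protein acts in the nucleus, was at 5.51 CPM without and 34.2 CPM with glucose under the control hairpin, and at 5.73 and 3.30 CPM under the Jaml hairpin. Its neighbour Mx2, whose mouse protein acts in the cytoplasm, was at 21.3 CPM without and 70.2 CPM with glucose under the control hairpin, and at 20.6 and 13.7 CPM under the Jaml hairpin. Both were alike without added glucose, high in sh-NC/HG and lowest in sh-JAML/HG. Mx2 had 3.86 times the CPM of Mx1 in sh-NC but 2.05 times in sh-NC/HG, and 3.60 and 4.15 times under the Jaml hairpin, without and with glucose. For the control hairpin pair the ratio was 6.20 (5.06 to 7.62) for Mx1 and 3.30 (2.96 to 3.68) for Mx2. Per length, Mx1 stood at 4.71 TPM in sh-NC, the lowest of the members there.

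The OAS enzymes make oligoadenylate messengers that activate the nuclease RNase L, and the OASL proteins are relatives of them. Of the 7 members 5 were past 2-fold in sh-NC/HG. Oas2 was at 9.04 CPM without and 47.2 CPM with glucose under the control hairpin, and at 8.17 and 5.53 CPM under the Jaml hairpin, a ratio of 5.22 (4.45 to 6.14) for the sh-NC pair. Oasl1, which encodes an inhibitor of IRF7 translation, was at 16.5 CPM, 53.1 CPM, 16.8 CPM and 11.5 CPM in the same order of libraries, a ratio of 3.21 (2.85 to 3.64). These 2 low genes thus repeated the order seen for Mx1 and Mx2. The ratio was 2.46 (2.27 to 2.67) for Oas1g, 2.26 (2.15 to 2.38) for Oas1a and 2.06 (1.96 to 2.17) for Oas3. Oas1b, the flavivirus resistance gene of mice, was 1.87-fold higher (1.68 to 2.10).

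Oasl2 behaved differently from its family. It was at 118 CPM without and 191 CPM with glucose under the control hairpin, and at 107 and 163 CPM under the Jaml hairpin. Both glucose libraries were thus above both libraries without added glucose. The ratio was 1.62 (1.54 to 1.71) with the control hairpin and 1.53 (1.45 to 1.61) with the Jaml hairpin.

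Among the sensors, Zbp1, which encodes a receptor of Z-form nucleic acids that can trigger necroptosis, was at 35.3 CPM without and 114 CPM with glucose under the control hairpin, and at 30.0 and 29.4 CPM under the Jaml hairpin. Dhx58, which encodes LGP2, a regulator of the other cytosolic RNA helicases, was at 38.2 CPM, 109 CPM, 38.5 CPM and 37.0 CPM in that order. The ratio of sh-NC/HG to sh-NC was 3.24 (2.98 to 3.53) for Zbp1 and 2.84 (2.62 to 3.09) for Dhx58. The other receptor genes had lower ratios. Tlr3, the endosomal receptor of double-stranded RNA, was 1.81-fold higher (1.6 to 2.05), Ifih1 (MDA5, a sensor of long double-stranded RNA) 1.66-fold (1.57 to 1.76) and Ddx58 (RIG-I, a sensor of RNA ends) 1.5-fold (1.44 to 1.56).

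Mavs encodes the mitochondrial adaptor that RIG-I and MDA5 both need. It was at 46.7 CPM without and 44.1 CPM with glucose under the control hairpin, and at 49.9 and 54.0 CPM under the Jaml hairpin. The highest library was 1.22 times the lowest, and its ratio in the sh-NC pair was 0.944 (0.86 to 1.03). It was the only member below 1 in that pair.

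The genes Eif2ak2 and Adar, whose enzymes act on double-stranded RNA, stood under the 2-fold line. Eif2ak2, the gene of the kinase PKR that halts translation, was at 155 CPM without and 294 CPM with glucose under the control hairpin, and at 150 and 148 CPM under the Jaml hairpin, a ratio of 1.89 (1.81 to 1.97). Adar, whose enzyme edits adenosine in double-stranded RNA, was 1.62-fold higher (1.56 to 1.68). Adar shares 16.8% of its exon bases with Chrnb2 on the other strand, and no source used here says whether counting was by strand.

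The IFIT proteins bind foreign RNA through its cap or end. The 4 members lie close together on chromosome 19 and had ratios between 1.43 and 1.92 in the sh-NC pair. Ifit3 was at 354 CPM without and 678 CPM with glucose under the control hairpin, and at 331 and 263 CPM under the Jaml hairpin. Ifit1 was at 310 CPM, 562 CPM, 303 CPM and 241 CPM, and Ifit2 at 385 CPM, 553 CPM, 351 CPM and 282 CPM in that order. In all 4 genes sh-NC/HG was the highest library and sh-JAML/HG the lowest. Ifit3 and Ifit3b are close copies, so reads can be split between them, and Ifit3 had 2.70, 2.84, 2.58 and 2.55 times the CPM of Ifit3b in the 4 libraries. Their ratio thus varied much less between libraries than either level.

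Isg15 encodes a ubiquitin-like protein that is joined to other proteins during infection. It was at 191 CPM without and 494 CPM with glucose under the control hairpin, and at 184 and 160 CPM under the Jaml hairpin, a ratio of 2.58 (2.49 to 2.68). Usp18, which encodes the protease that removes ISG15 and restrains the interferon receptor, was at 119 CPM, 255 CPM, 112 CPM and 107 CPM, a ratio of 2.14 (2.04 to 2.25). Herc6, the ISG15 ligase gene of mice, was 1.85-fold higher (1.77 to 1.94), and Trim25, a ubiquitin ligase gene linked to RIG-I, 1.57-fold higher (1.5 to 1.64). The modifier, its ligase and its protease were thus all higher in the same library. Herc6 shares 13.7% of its exon bases with Gm45193.

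Parp14, which encodes a large ADP-ribosyltransferase, was at 238 CPM without and 572 CPM with glucose under the control hairpin, and at 216 and 190 CPM under the Jaml hairpin, a ratio of 2.40 (2.32 to 2.48). Parp9 and the ubiquitin ligase gene Dtx3l encode partners in a complex and overlap at their starts on opposite strands. Both were 2.09-fold higher, with intervals of 2.0 to 2.19 for Parp9 and 1.99 to 2.20 for Dtx3l. Parp9 had between 1.17 and 1.30 times the CPM of Dtx3l in all 4 libraries. Parp12, whose enzyme inhibits viral translation, was 1.45-fold higher (1.40 to 1.51).

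Rsad2 encodes viperin, which makes a chain-terminating nucleotide from CTP, and its neighbour Cmpk2 encodes a nucleotide kinase. Rsad2 was at 103 CPM without and 334 CPM with glucose under the control hairpin, and at 100.0 and 79.9 CPM under the Jaml hairpin, a ratio of 3.25 (3.10 to 3.42). Cmpk2 was at 53.3 CPM, 97.3 CPM, 51.9 CPM and 44.0 CPM, a ratio of 1.83 (1.70 to 1.97). Although the 2 genes are neighbours on chromosome 12, Rsad2 had 1.93 times the CPM of Cmpk2 in sh-NC and sh-JAML, 1.82 times in sh-JAML/HG and 3.44 times in sh-NC/HG.

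Isg20 encodes an RNA exonuclease and had its own pattern. It was at 19.3 CPM without and 32.6 CPM with glucose under the control hairpin, and at 32.9 and 30.2 CPM under the Jaml hairpin. Here sh-NC was the low library and the other 3 were alike.

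Among the membrane restriction factors, Bst2 (tetherin, which holds budding virions) and Ifitm3 (which blocks virus fusion in endosomes) were the most abundant members per length. In sh-NC they stood at 3020 TPM and 2258 TPM, and Isg15 came next at 820 TPM. In sh-NC/HG the order of the leading 2 was turned, with Ifitm3 at 4842 TPM and Bst2 at 4605 TPM. Ifitm3 was 2.10-fold higher in CPM (2.05 to 2.15) and Bst2 1.49-fold (1.46 to 1.52).

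Of the remaining 7 effectors 2 were at least 2-fold higher (4.65% of all genes). Trim30a was at 82.6 CPM without and 201 CPM with glucose under the control hairpin, and at 76.8 and 75.1 CPM under the Jaml hairpin. Ifi44 was at 83.1 CPM, 183 CPM, 86.4 CPM and 52.0 CPM in that order. The ratio was 2.44 (2.30 to 2.58) for Trim30a and 2.20 (2.08 to 2.33) for Ifi44. Xaf1, an antagonist gene of the apoptosis inhibitor XIAP, was 1.76-fold higher (1.66 to 1.87), Rtp4 1.70-fold (1.59 to 1.83), Ifi35 1.56-fold (1.46 to 1.67) and Samd9l, which encodes an inhibitor of translation, 1.52-fold (1.47 to 1.58). Ifi27, which encodes a mitochondrial membrane protein, had the ratio nearest 1 of these, 1.12-fold (1.07 to 1.18), with 149 CPM in sh-NC and 165 to 167 CPM in the other 3 libraries. Rtp4 and Ifi35 share 13.9% and 16.8% of their exon bases with Gm45338 and Gm11626.

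The members with the lowest levels had the highest median ratio. Ordered by their per-length level in sh-JAML, a library outside this pair, the 14 lowest members (4.96 to 52.9 TPM) had a median ratio of 2.13, the middle 13 a median of 1.76 and the 14 highest (95.9 to 2871 TPM) a median of 1.82. At least 2-fold higher were 8, 6 and 4 of them (4.65% of all genes). Across the 41 genes, Pearson's r between log2 TPM in sh-JAML and log2 ratio was -0.50 and Spearman's rho -0.43, as a description over genes of the same libraries.

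The comparison of sh-JAML/HG with sh-JAML asks the same of cells with the Jaml hairpin, and it shares no library with the pair above. There 36 of 41 members lay below a ratio of 1 (50.1% of all genes) and 5 above (49.9%), and their log2 ratios had a median of -0.13. Past 2-fold, 0 members were higher (1.31% of all genes) and 0 lower (1.56%). Past 1.5-fold, 1 was higher (3.57%) and 3 were lower (4.18%). The counting interval lay below 1 for 28 members (16.4% of all genes), above 1 for 1 (Oasl2, 16.0%) and held 1 for 12. Nearest the 2-fold line were Mx1 at 1.74-fold lower and Oasl2 at 1.53-fold higher.

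The genes farthest below 1 in this pair were Mx1, Ifi44, Mx2, Oas2 and Oasl1. Ifi44 was 1.66-fold lower (1.54 to 1.79), Oas2 1.48-fold (1.16 to 1.89) and Oasl1 1.46-fold (1.23 to 1.73). The 4 IFIT genes stood together, between 1.25-fold and 1.26-fold lower. Rsad2 was 1.25-fold lower (1.17 to 1.33), Rtp4 1.31-fold (1.21 to 1.43) and Isg15 1.16-fold (1.10 to 1.21). The sensor genes Zbp1 and Dhx58, high in the other pair, had ratios of 0.98 (0.87 to 1.10) and 0.96 (0.87 to 1.06) here. Of the 5 members above 1, only Oasl2 had an interval away from 1, and Tlr3, Mavs, Dtx3l and Ifi27 were between 1.02-fold and 1.08-fold.

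**Figure D3:**
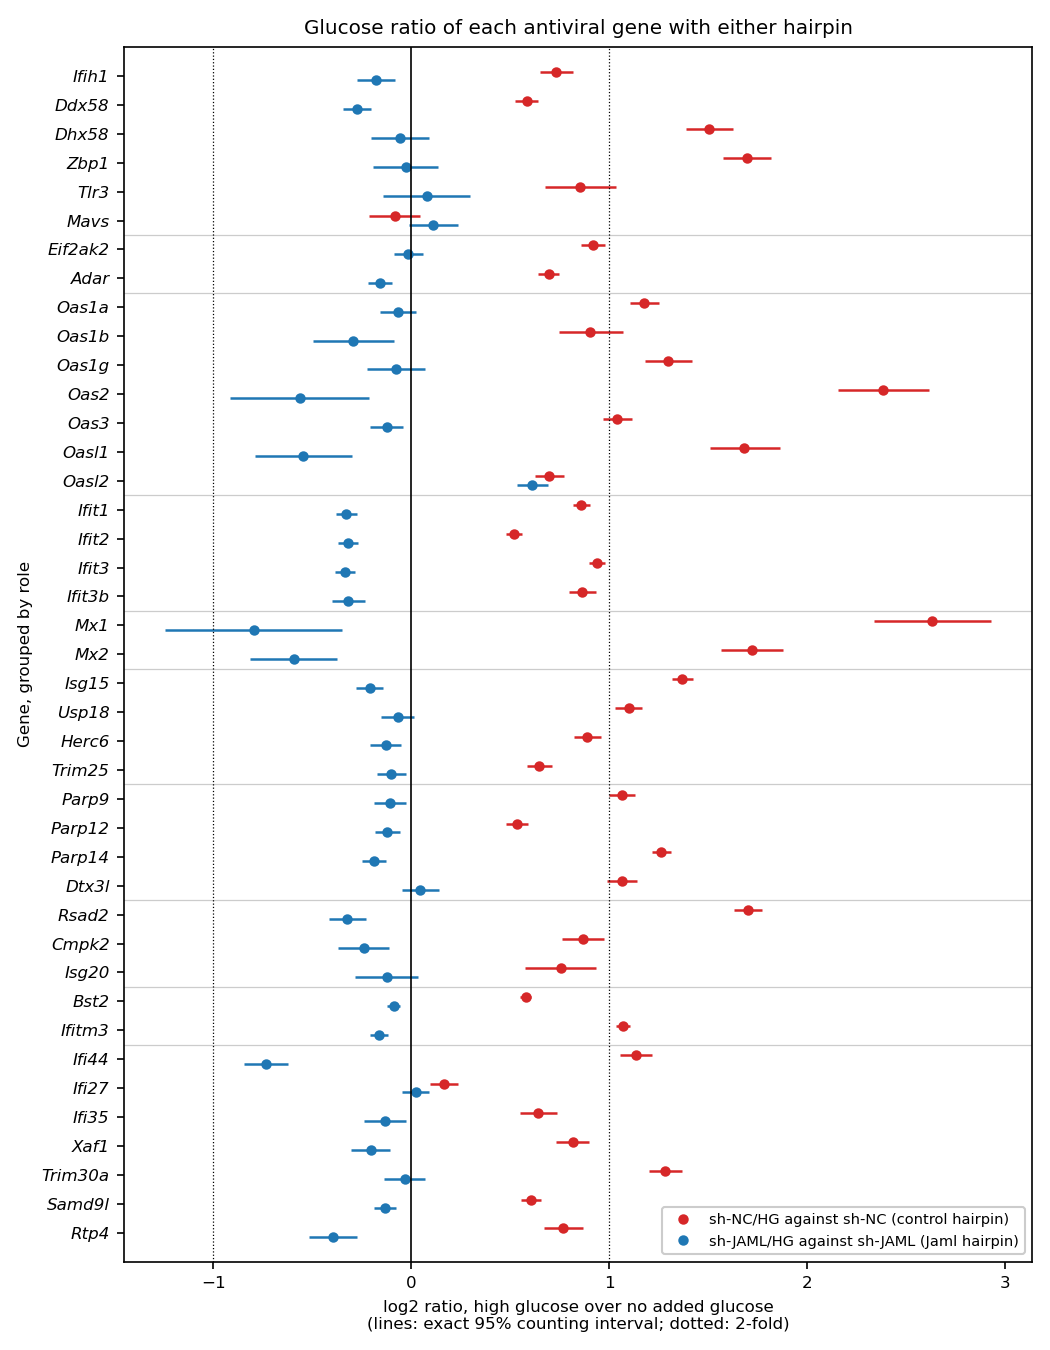
log2 ratio of high glucose over no added glucose for each member (points) with its exact 95% counting interval (lines), in the sh-NC pair (red) and the sh-JAML pair (blue), with 2-fold dotted. Red points lie between -0.08 and 2.63 and blue points between -0.80 and 0.61. The red and blue points are nearest each other at Oasl2, and at Mavs alone the blue point lies to the right of the red.

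The glucose ratios thus lay on opposite sides of 1 for 36 members (above in the sh-NC pair, below in the sh-JAML pair), which 24.4% of all genes did. For 28 of them both counting intervals were also away from 1, against 5.03% of all genes. They were above 1 in both pairs for 4 members (Oasl2, Ifi27, Tlr3 and Dtx3l, 25.7% of all genes) and below 1 in both for 0 (25.7%). The sh-NC log2 ratio minus the sh-JAML log2 ratio had a median of 1.17 over the members and 0.01 over all genes. It was at least 1 for 26 members, against 5.88% of all genes. The difference was 3.43 for Mx1 (counting interval 2.91 to 3.94), 2.95 for Oas2 (2.54 to 3.36), 2.31 for Mx2 (2.05 to 2.58), 2.23 for Oasl1 (1.93 to 2.53) and 2.02 for Rsad2 (1.91 to 2.14). For Oasl2 it was 0.09 (-0.02 to 0.19), and for Mavs -0.20 (-0.37 to -0.02). With 4 libraries in 4 groups this difference has no residual degree of freedom and was not tested.

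The additive model over both hairpins, which takes the disagreement between hairpins as its error, called few genes. For glucose, edgeR's quasi-likelihood test called 0 of 41 members after Benjamini-Hochberg adjustment (0.00705% of all genes were called). At an unadjusted p under 0.05 it had 1 member, Oasl2 (2.8% of all genes). Oasl2 was higher with glucose under both hairpins, with a log2 difference of 0.65 and an adjusted p of 0.927 by edgeR's quasi-likelihood test. DESeq2 called Oasl2 alone (adjusted p = 0.0321, 0.374% of all genes called) and had 5 members at an unadjusted p under 0.05 (3.87%). The limma-voom fit called 0 members (0.0%) and had 1 at an unadjusted p under 0.05 (3.07%). For the hairpin, edgeR called 0 members (0.0% of all genes) with 0 at an unadjusted p under 0.05 (2.82%), DESeq2 called 0 (0.338%) with 23 (4.19%), and limma-voom called 0 (0.0%) with 1 (3.22%).

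The comparison of sh-JAML with sh-NC addresses the Jaml hairpin without added glucose. For the members these libraries were close to each other: 28 ratios were below 1 (49.6% of all genes) and 13 above (50.4%), with a median of -0.04 on the log2 scale. Past 2-fold, 0 members were higher (1.31% of all genes) and 0 lower (1.4%). Past 1.5-fold, 1 was higher (4.12%) and 0 lower (3.9%). The counting interval lay above 1 for 3 members (14.2% of all genes), below 1 for 12 (16.8%) and held 1 for 26. Isg20 stood alone at 1.71-fold higher (1.5 to 1.94), and the next highest were Ifi27 at 1.11-fold (1.05 to 1.16), Mavs at 1.07-fold (0.98 to 1.17) and Samd9l at 1.07-fold (1.03 to 1.11). The lowest were Tlr3 at 1.18-fold lower (1.02 to 1.37), Zbp1 at 1.18-fold (1.05 to 1.31) and Ifitm3 at 1.12-fold (1.09 to 1.16).

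The comparison of sh-JAML/HG with sh-NC/HG addresses the hairpin under high glucose and shares the sh-NC/HG library with the first pair, so the same high library enters both. Of the 41 members 40 lay below a ratio of 1 (49.7% of all genes) and 1 above (50.3%), with a median of -1.21 on the log2 scale. Past 2-fold, 27 members were lower (4.78% of all genes) and 0 higher (2.81%). Past 1.5-fold, 37 were lower (9.86%) and 0 higher (8.35%). The counting interval lay below 1 for 38 members (29.3%) and above 1 for 1 (28.3%). Mx1 was 10.3-fold lower (8.09 to 13.4), Oas2 8.52-fold (7.05 to 10.4), Mx2 5.13-fold (4.53 to 5.84), Oasl1 4.62-fold (4.02 to 5.32), Rsad2 4.18-fold (3.97 to 4.41) and Zbp1 3.88-fold (3.56 to 4.24). Tlr3 lay just inside the 2-fold line at 2.02-fold lower and Eif2ak2 just outside at 1.98-fold. Oasl2 was 1.17-fold lower (1.12 to 1.22), the intervals of Isg20 and Ifi27 held 1, and Mavs was 1.22-fold higher (1.12 to 1.33).

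**Figure D4:**
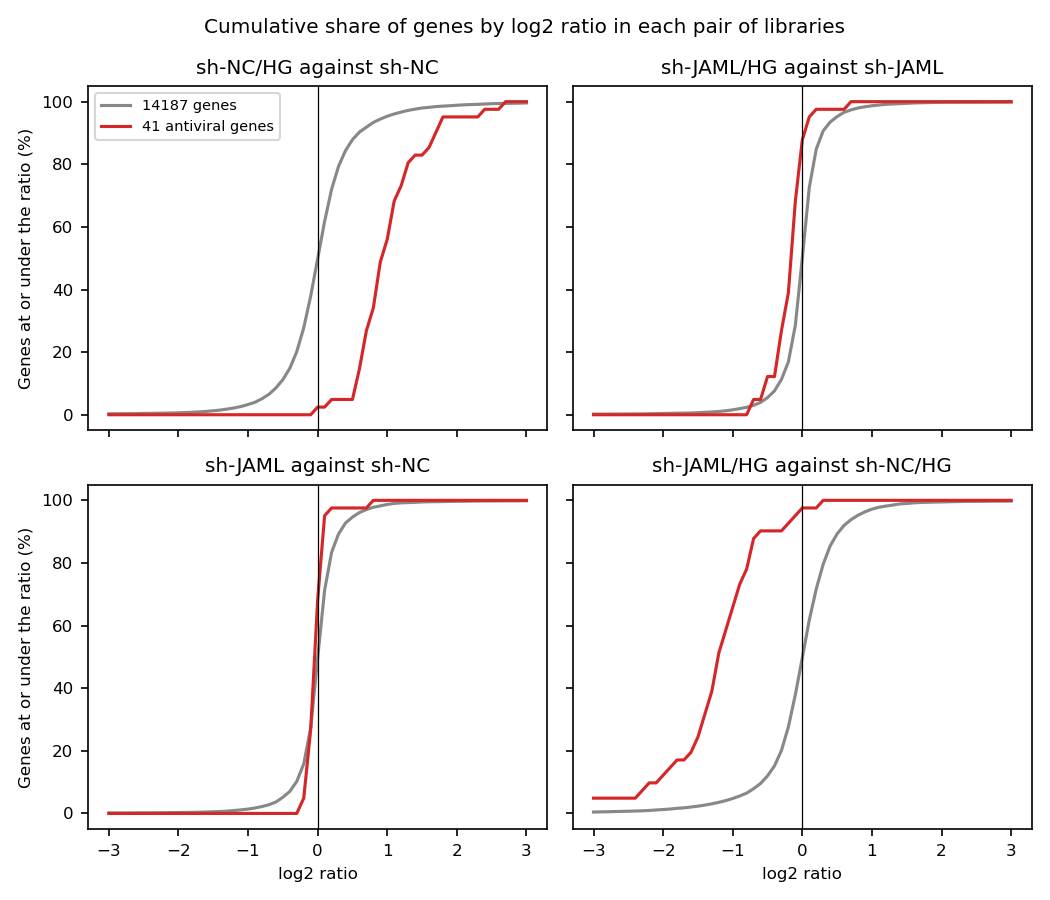
Cumulative share of genes (percent at or under each log2 ratio) for the 41 members (red) and the 14187 genes (grey) in each pair of libraries. The red curve lies to the right of the grey for glucose under the control hairpin, far to the left for the hairpin under glucose, and to the left by less for glucose under the Jaml hairpin, where 87.8% of members and 50.1% of all genes lie at or under 0. For the hairpin without added glucose 68.3% and 49.6% lie at or under 0.

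Genes upstream of the members were taken from fixed lists. Of 21 interferon genes, none reached the count minimum and 15 were 0 in all 4 libraries, among them Ifng, Ifnl2 and Ifnl3. Ifnb1, the interferon-beta gene, had 4 units without and 70 with glucose under the control hairpin, and 0 in both libraries of the Jaml hairpin, where 4 units are 1 sequenced fragment. Only sh-NC/HG was thus above, for Ifnb1, the floor of 3 fragments, or 12 units. Its level there, 0.750 CPM, was 14.9 times that of sh-NC (counting interval 2.42 to 639), at least 5.02-fold higher than in sh-JAML and at least 5.29-fold higher than in sh-JAML/HG, with 0 set to the floor per library. The lower counting limits of these last ratios, with no floor, were 3.78 and 3.99. Ifnz had 43 and 51 units under the control hairpin and 33 and 39 under the Jaml hairpin, and Ifna4 reached 15 units in sh-NC/HG and at most 4 elsewhere. The remaining 3 detected genes (Ifna6, Ifna7 and Ifnab) had at most 5 units in a library.

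From the interferon receptor to transcription, 14 of 14 listed genes were past the minimum, and under the control hairpin 3 were past 2-fold higher with glucose (4.65% of all genes) and 0 lower (3.27%), with 13 above 1 (50.2%) and a median of 0.42 on the log2 scale. Socs3, which encodes a feedback inhibitor of cytokine receptors, was 3.44-fold higher (2.95 to 4.03), Irf7, the factor that amplifies interferon genes, 2.39-fold (2.27 to 2.51) and Stat2 2.36-fold (2.23 to 2.49). Irf9 was 1.47-fold higher (1.39 to 1.56). In the sh-JAML pair 10 of the 14 were below 1 (50.1% of all genes). Past 2-fold, 0 were higher (1.31%) and 0 lower (1.56%).

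Of 33 other sensors and signalling genes 29 were past the minimum, with a median log2 ratio of 0.29 in the sh-NC pair, 3 past 2-fold higher (4.65% of all genes) and 1 past 2-fold lower (3.27%). The DNA-binding protein gene Ifi204 and the helicase gene Ddx60 were both 2.53-fold higher (2.38 to 2.69 for each), and the DNA exonuclease gene Trex1 was 2.50-fold higher (1.94 to 3.31), although all of its exon bases are shared with Atrip. Zcchc3 was lower, at 1.28 CPM without and 0.257 CPM with glucose under the control hairpin. Tmem173, which encodes STING, the adaptor of DNA sensing, was at 28.9 CPM without and 54.0 CPM with glucose under the control hairpin, and at 19.7 and 23.9 CPM under the Jaml hairpin. Cgas, the DNA sensor gene upstream of it, was at 20.7 CPM, 32.6 CPM, 35.6 CPM and 22.8 CPM. Cgas was thus highest in sh-JAML, with sh-NC/HG next. The DNA-sensing inflammasome gene Aim2 was at 1.04 CPM with the control and 0.498 CPM with the Jaml hairpin, both without added glucose, a ratio of 0.48 (0.20 to 1.05).

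Of the paralogs of the members 42 were listed, 41 were in the table and 28 past the minimum. With glucose under the control hairpin 7 of these were past 2-fold higher (4.65% of all genes) and 0 lower (3.27%), with a median of 0.16 on the log2 scale. Trim30d was 5.59-fold higher (3.59 to 8.91), Oas1h 3.83-fold (2.14 to 7.81), Ifi27l2a 3.26-fold (2.97 to 3.58), Oas1c 2.86-fold (2.47 to 3.31), Ifit1bl2 2.55-fold (1.90 to 3.52), Ifit1bl1 2.21-fold (1.74 to 2.86) and Ifitm10 2.13-fold (1.82 to 2.51). Ifi27l2a was thus far above 2-fold where its relative Ifi27 was at 1.12-fold. Ifi44l, the relative of Ifi44, was 0 in all 4 libraries. In the sh-JAML pair 20 of the 28 paralogs were below 1 (50.1% of all genes). Past 2-fold, 0 were higher (1.31%) and 0 lower (1.56%).

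**Figure D5:**
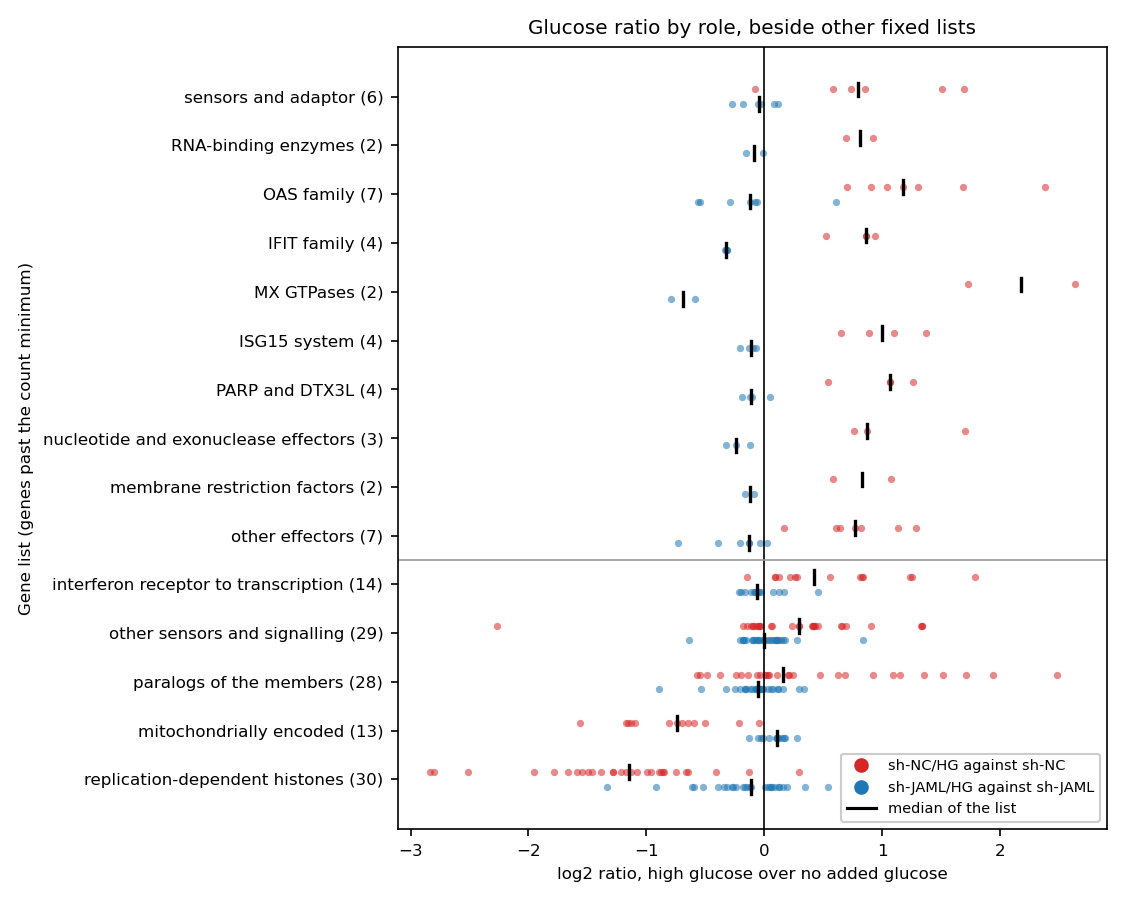
log2 ratio of high glucose over no added glucose for every gene past the count minimum (points), by role of the members (above the grey line) and for other fixed lists (below it), with the sh-NC pair in red, the sh-JAML pair in blue and list medians as black bars. Red medians of the member groups lie between 0.77 and 2.18, those of the mitochondrially encoded and histone genes at -0.74 and -1.15, and all blue medians of the member groups are below 0.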

How the data were processed

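RNA-seq data of 4 libraries, 1 per group, were analysed. CASAVA 1.8, TopHat2 2.0.6 and build mm10 are listed in the submitters' processing notes. What the authors deposited is 1 estimated count for each gene in each library, unscaled. How they were counted, and whether by strand, is not given in the sources used here. Table columns were matched to libraries by their names, and ctr and HG, which lack a hairpin name, were taken as the control hairpin libraries. In the deposited counts, genes at 4, 8 and 12 units were 1.51 to 2.1 times as frequent as at neighbouring even values, so 4 units were taken as 1 fragment for intervals and floors. A count of 0 allows up to 3 fragments. Fragments without molecular identifiers are not independent molecules.

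Symbols, positions and exon lengths came from GENCODE M21 (GRCm38, the same coordinates as mm10). Counts were scaled with edgeR 4.0.16 (TMM, R 4.3.3), with a prior count of 1 in log2 ratios. TPM used the union of exons. Intervals of a ratio are exact 95% Clopper-Pearson, and those of a difference between 2 log2 ratios are normal approximations from fragment counts. The additive model of hairpin and glucose was fitted over 14187 genes with edgeR's quasi-likelihood test (1 residual degree of freedom, Benjamini-Hochberg at 0.05), and with DESeq2 1.42.0 and limma 3.58.1 as alternatives. The edgeR fit was also run on simulated data, in which glucose changed a gene alike under both hairpins. Such data lack the disagreement between hairpins seen here, so they do not test the model for it. Other values used Python 3.11.15, scipy 1.17.1 and pandas 2.3.3. The rule named all 41 members, and, of other lists, genes at least 2-fold apart in any pair with Irf7, Irf9, Cgas and Tmem173, and some genes the rule names are not reported here. Jaml, the interferon genes, the marker genes and Ifi44l were named after their values were seen. The members and lists were chosen with earlier results of these data known.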

Additional observations from a re-analysis of the deposited data

Results flagged for a closer look

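For 28 members the glucose ratio lay above 1 with the control hairpin and below 1 with the Jaml hairpin, with both counting intervals away from 1, which 5.03% of the 14187 genes met. The difference between the hairpins was not tested, since each group has 1 library. Values are the sh-NC log2 ratio minus the sh-JAML log2 ratio.

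The largest were 3.43 for Mx1, 2.95 for Oas2, 2.31 for Mx2, 2.23 for Oasl1 and 2.02 for Rsad2. Between 1.2 and 1.9 were Ifi44 at 1.87, Isg15 at 1.58, Parp14 at 1.45, Ifit3 at 1.27, Ifitm3 at 1.23 and Oas1b at 1.2. Close to them were Ifit1 at 1.19, Ifit3b at 1.18, Oas3 and Parp9 at 1.17 each, Rtp4 at 1.16 and Cmpk2 at 1.11. Herc6 and Xaf1 stood at 1.02 each. Under 1 were Ifih1 at 0.91, Ddx58 at 0.86, Adar at 0.85, Ifit2 at 0.84, Ifi35 at 0.77, Trim25 at 0.75, Samd9l at 0.74, Bst2 at 0.67 and Parp12 at 0.66. All 28 share the same 4 libraries, so they are not independent of each other.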

How the results depend on the processing

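With 1 library per group no library could be left out of a pair. No paired analysis was possible, because each group has 1 library and the labels give no replicate numbers. Under 4 other scalings, 2 other count minimums, a prior count of 4 and the members with under 10% shared exon bases, the count of members at least 2-fold apart stayed within 1.5 times its value in every pair, and the median log2 ratio stayed between 0.90 and 0.94 for glucose under the control hairpin, at -0.13 for glucose under the Jaml hairpin, between -0.05 and -0.01 for the hairpin without added glucose and between -1.22 and -1.17 for the hairpin under glucose. At a fold of 1.5 in place of 2, these counts became 35 higher for glucose under the control hairpin, 1 higher and 3 lower for glucose under the Jaml hairpin, and 1 higher for the hairpin without added glucose. In the additive model for glucose, DESeq2 called 1 member where edgeR called 0. The cause was not tested. Ifit1, Ifit3b and Xaf1 in sh-JAML against sh-NC, and Ifi27 in sh-JAML/HG against sh-NC/HG, lay on either side of 1 depending on the scaling. Counting error was small for most members, and the variation between cultures was not measured.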
